A study of Mus musculus with 9 samples.

Results

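DNA methylation was followed at 6 maternally imprinted regions of the mouse, those of Plagl1, Grb10, Zrsr1, Peg13, Igf2r and Impact, in embryos made by nuclear transfer and in the cultured fibroblasts that served as nuclear donors. The regions were chosen by position on build mm9: Plagl1 at chr10:12808500-12812500, Grb10 at chr11:11924500-11928000, Zrsr1 at chr11:22870500-22874500, Peg13 at chr15:72636000-72642000, Igf2r (with the start of its antisense RNA Airn) at chr17:12933000-12936500 and Impact at chr18:13128500-13133000. A CpG was kept where at least 6 of the 8 samples had 5 or more calls, a call being 1 read's state at that CpG. This kept 193 of the 334 CpGs with any call in the 6 windows, out of 1151670 kept CpGs in the whole series.

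The embryos, labelled NTZy14 and here called NT embryos, came from C57/B6 oocytes that had been enucleated, given a fibroblast nucleus and activated with strontium chloride and cytochalasin B. The fibroblasts, labelled TT, were grown from tail tips of adult males and passaged to confluence. Each stage had 4 samples: 2 labelled X1 (numbers 3 and 4) and 2 labelled BDF1-CAST (numbers 1 and 2). The assay was reduced representation bisulfite sequencing, where MspI fragments are converted so that unmethylated cytosines read as thymines. Fibroblast libraries 1 and 1a, the second a resequencing, were summed into 1 sample. The meaning of the digits in NTZy14, the cross or line behind X1 and the number of embryos in a sample are not given in these sources. Below, an embryo, with or without a number, means 1 such sample, which may hold more than 1 embryo. Levels and spread are those of samples and are not known to be those of single embryos. It is also not stated that samples of a group were separate animals or cultures, so the p-values below reflect only how these samples spread, possibly for technical reasons.

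A maternally imprinted control region carries methylation on the allele from the oocyte and none on the allele from sperm. The mark is laid down while the oocyte grows, survives the wave of demethylation after fertilization, and in somatic tissues decides which parental allele of the neighbouring genes is used. A donor nucleus from a somatic cell brings both alleles with their marks into the egg. In mouse, the zinc finger protein ZFP57 binds the methylated hexamer TGCCGC in imprinted regions and helps to keep their methylation in the early embryo. A level close to the middle of the scale is the usual picture of an intact imprint. The calls here were not divided by allele.

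Of the 6 windows, those of Plagl1 and Zrsr1 hold a promoter whose sequence could be placed on the measured CpGs. RefSeq promoter sequences (build GRCm38.p6, from 250 bases before to 50 after the gene start) were set against the deposited mm9 positions by the spacing of their CpGs alone. At the Plagl1 promoter, chr10:13090582-13090881 on the plus strand, 23 of 23 CpGs with calls matched a CpG of the sequence, and the next best placement matched 4 of 6. At the Zrsr1 promoter, chr11:22971755-22972054 on the plus strand, 7 of 7 matched, against 2 of 5. The promoters of Hymai, a non-coding RNA that starts beside Plagl1, and of Commd1, the host gene of Zrsr1, also matched, with 25 of 25 and 15 of 15 CpGs. Both sequences are shown because the single-CpG values below lie on them. Capitals mark the CpGs kept, 12 of the 26 in the Plagl1 sequence and 5 of the 10 in the Zrsr1 sequence.
Plagl1 promoter: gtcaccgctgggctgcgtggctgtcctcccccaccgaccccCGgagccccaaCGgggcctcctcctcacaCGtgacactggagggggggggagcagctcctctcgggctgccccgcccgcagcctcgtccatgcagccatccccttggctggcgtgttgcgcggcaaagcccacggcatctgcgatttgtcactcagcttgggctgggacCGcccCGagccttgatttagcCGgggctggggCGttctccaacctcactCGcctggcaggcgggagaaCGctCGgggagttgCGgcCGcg
Zrsr1 promoter: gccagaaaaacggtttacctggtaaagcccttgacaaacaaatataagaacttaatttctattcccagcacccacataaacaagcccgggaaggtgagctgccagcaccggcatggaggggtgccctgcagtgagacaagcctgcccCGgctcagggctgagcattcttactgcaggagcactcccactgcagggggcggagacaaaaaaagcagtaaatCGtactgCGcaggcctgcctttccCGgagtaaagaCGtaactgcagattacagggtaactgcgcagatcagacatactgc
TGCCGC, searched on both strands, occurred in 1 place of the Plagl1 promoter, at a CpG that was not kept, and in 0 places of the Zrsr1 promoter. Among all 32851 RefSeq mouse promoters of this length, 3813 (11.6%) held it.

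Mean methylation of NT embryos differed from the fibroblast mean by 0.54 points at Plagl1, -5.27 at Zrsr1 and -2.25 at Igf2r, and by 10.4 points at Grb10, 11.9 at Peg13 and -20.6 at Impact. At none of the 6 windows did the difference between stages pass a two-sided exact permutation test. The NT embryos scattered more in every window. The SD between samples was larger in NT embryos than in fibroblasts in 6 of 6 windows, with a median of 10.2 points against 3.34. The 24 fibroblast values ran from 24.8 to 42.3%, and 24 of 24 lay under 50%. The embryo values ran from 0.826 to 65.8%. With 4 samples against 4, the exact permutation test has 70 assignments and cannot go below p = 0.0286. Window levels rested on 121 to 3197 calls, and 95% Wilson intervals, which cover counting error only, were 3.28 to 12.3 points wide. Libraries held 25239364 to 41466097 calls in all.

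**Figure D1:**
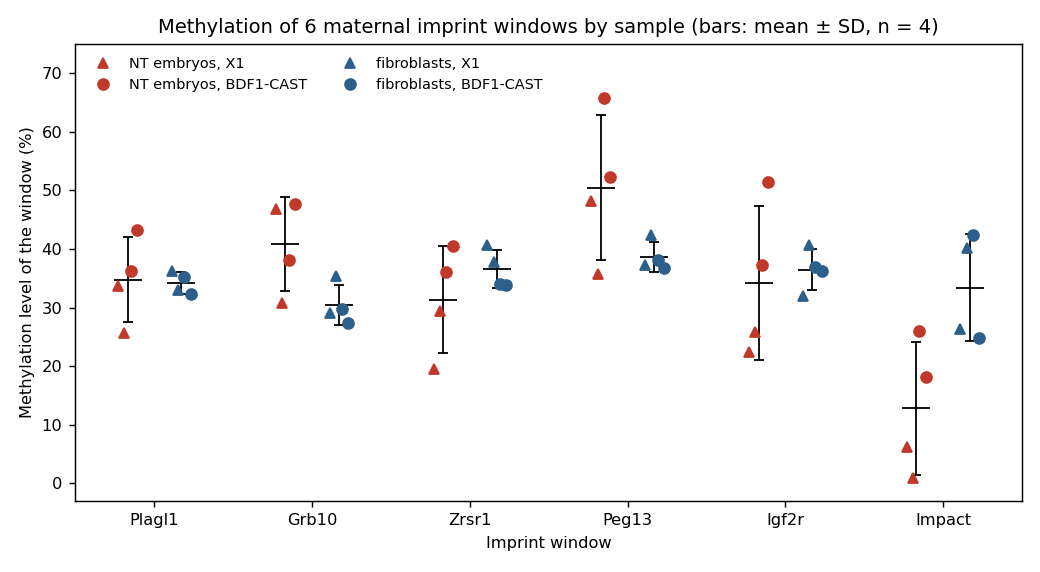
Methylation level in percent (vertical axis) of each imprint window (horizontal axis), NT embryos in red left of fibroblasts in blue, X1 as triangles and BDF1-CAST as circles, with mean and SD of 4 samples. Fibroblast samples sit between 24.8 and 42.3%, while embryo samples spread from 0.826 to 65.8%.

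Plagl1 encodes a zinc finger transcription factor that restrains cell proliferation, and its window covers the promoter it shares with Hymai. The window measured 33.7 and 25.7% in X1 embryos and 36.2 and 43.3% in BDF1-CAST embryos, against 36.3 and 33.1% in X1 fibroblasts and 35.2 and 32.2% in BDF1-CAST fibroblasts. Of the embryos, 1 lay below the fibroblast range, 1 above it and 2 within it. Means were 34.7 ± 7.26% in NT embryos and 34.2 ± 1.87% in fibroblasts (SD, n = 4 each), a difference of 0.54 points (exact permutation p = 0.83). Without NT embryo 2 the difference was -2.31, and without fibroblast sample 2 it was -0.113.

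Within the kept span of 566 bp, tiles of 100 bp in the Plagl1 window differed with opposite signs. The tile at chr10:12810400-12810499, upstream of the start, held 23.9 and 7.69% in X1 embryos and 24.1 and 0% in BDF1-CAST embryos, against 30.7 and 13.8% in X1 fibroblasts and 48.6 and 56.0% in BDF1-CAST fibroblasts. The 0 came from 76 calls, which allows a level of up to 3.95%. The tile at chr10:12810700-12810799 held 32.9 and 62.7% in X1 embryos and 42.0 and 73.2% in BDF1-CAST embryos, against 27.8 and 49.2% in X1 fibroblasts and 32.1 and 22.8% in BDF1-CAST fibroblasts. Embryos and fibroblasts overlapped in both tiles, and neither difference, -23.3 and 19.7 points, passed the genome-wide test (quasi-binomial F test, Benjamini-Hochberg adjusted p = 0.167 and 0.195). The CpG at 12810777 had the largest difference of the well covered CpGs in the window, with 61.3 ± 26.4% in NT embryos and 27.0 ± 4.78% in fibroblasts. Its embryo values ran from 31.8 to 93.3% and its fibroblast values from 23.1 to 33.3%.

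Read along the printed sequence, the first 3 capitals of the Plagl1 promoter, 209 to 180 bases before the start, averaged 14.1, 14.0 and 13.6% in NT embryos, against 39.1, 36.1 and 36.5% in fibroblasts. The next 5, 40 bases before to 9 after the start, ran from 23.1 to 36.8% in embryos and from 18.9 to 33.0% in fibroblasts. The 36.8%, 9 bases after the start, holds 80% in NT embryo 2 and 11.8 to 28.6% in the other embryos. The thinnest sample there had 5 calls. The 4 CpGs farthest downstream averaged 8.33% in NT embryos, with 33.3% in NT embryo 2 and 0% in the others. Fibroblasts averaged between 9.42 and 12% there. Across both stages the thinnest sample at these CpGs had 3 calls. These single CpGs are described without a test.

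**Figure D2:**
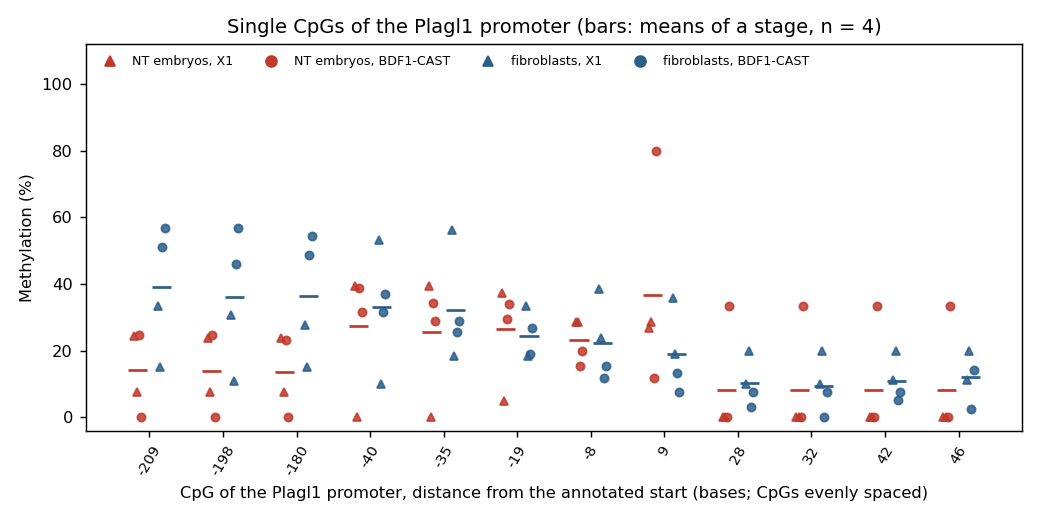
Methylation in percent (vertical axis) of the 12 kept CpGs of the Plagl1 promoter by distance from the annotated start in bases (horizontal axis, evenly spaced), NT embryos in red left of fibroblasts in blue, with bars for the mean of 4 samples. Means over the 3 CpGs at -209 to -180 lie at 13.6 to 14.1% in embryos and 36.1 to 39.1% in fibroblasts, and the groups overlap at each.

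Grb10 encodes an adaptor protein that dampens insulin and growth factor receptor signalling, and its maternal imprint lies at an internal promoter. NT embryos were mostly higher here. The window measured 46.8 and 30.8% in X1 embryos and 38.1 and 47.7% in BDF1-CAST embryos, against 29.1 and 35.4% in X1 fibroblasts and 29.8 and 27.4% in BDF1-CAST fibroblasts. NT embryo 4, at 30.8%, was the only embryo below the highest fibroblast sample. Means were 40.9 ± 7.96% in NT embryos and 30.4 ± 3.43% in fibroblasts (SD, n = 4 each), 10.4 points apart (exact permutation p = 0.0571). Without NT embryo 4 the groups no longer overlapped, and the difference was 13.8 points (exact permutation p = 0.0286, the smallest possible without that sample). Leaving out any other 1 sample gave exact permutation p = 0.0571 to 0.114. With every CpG weighted equally the difference was 6.04 points (exact permutation p = 0.314).

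The first tile with kept CpGs in the Grb10 window, chr11:11925600-11925699 with 5 CpGs, was the one called there. It held 58.2 and 56.0% in X1 embryos and 66.7 and 61.9% in BDF1-CAST embryos, against 27.9 and 42.3% in X1 fibroblasts and 25.3 and 20.7% in BDF1-CAST fibroblasts. Every embryo lay above every fibroblast sample. The tile rose by 31.6 points, with 60.7 ± 4.67% in NT embryos and 29.1 ± 9.31% in fibroblasts (SD, n = 4 each; quasi-binomial F test, adjusted p = 0.030 over all tiles of the genome). The call was lost without NT embryo 1 or 2, without fibroblast sample 1, 2 or 3, and without library 1a, at adjusted p = 0.0505 to 0.145. With the replicate number as a block it was lost too.

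Elsewhere in Grb10 the embryos went apart from one another. The tile at chr11:11925800-11925899, with 11 CpGs, held 53.7 and 23.9% in X1 embryos and 55.6 and 58.1% in BDF1-CAST embryos, against 33.7 and 28.2% in X1 fibroblasts and 33.9 and 32.6% in BDF1-CAST fibroblasts. NT embryo 4 was below all fibroblasts there and the other embryos above them. With all 8 samples this tile was not called (15.7 points, adjusted p = 0.188, quasi-binomial F test). Without NT embryo 4 it was called higher in NT embryos (23.6 points, adjusted p = 0.0236, same test). At chr11:11926700-11926799 the 2 stages overlapped, with 58.9 and 22.9% in X1 embryos and 11.7 and 44.9% in BDF1-CAST embryos, against 45.4 and 41.2% in X1 fibroblasts and 46.4 and 55.4% in BDF1-CAST fibroblasts (-12.5 points, adjusted p = 0.461). The CpG at 11926187 averaged 44.6 ± 29.6% in NT embryos, from 25.0 to 88.6%, and 34.3 ± 13.3% in fibroblasts, from 16.7 to 48.9%.

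Zrsr1, a retrogene related to the splicing factor U2AF, lies in an intron of Commd1 and is read from the paternal allele. Its window measured 19.5 and 29.4% in X1 embryos and 36 and 40.5% in BDF1-CAST embryos, against 40.7 and 37.8% in X1 fibroblasts and 34.1 and 33.9% in BDF1-CAST fibroblasts. Both X1 embryos were below all fibroblasts, while the BDF1-CAST embryos lay within the fibroblast range. Means were 31.3 ± 9.13% in NT embryos and 36.6 ± 3.25% in fibroblasts (SD, n = 4 each), a difference of -5.27 points (exact permutation p = 0.371), which was -1.32 without NT embryo 3.

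The lowest embryo levels at Zrsr1 were in 1 tile, chr11:22873900-22873999, away from the promoter. This tile held 0 and 18.2% in X1 embryos and 0.431 and 15.6% in BDF1-CAST embryos, against 44.8 and 48.6% in X1 fibroblasts and 41.8 and 32.2% in BDF1-CAST fibroblasts. The 0 came from 44 calls and allows a level of up to 6.82%. Every embryo was below every fibroblast sample. The tile fell by 33.3 points, with 8.56 ± 9.69% in NT embryos and 41.8 ± 6.99% in fibroblasts (SD, n = 4 each; adjusted p = 0.0366, quasi-binomial F test). The tile has 2 CpGs, and its call was lost when any 1 of the 8 samples was left out, at adjusted p = 0.0512 to 0.175, without library 1a, and with limma on arcsine square root levels, at adjusted p = 0.0833. In all, 12 of 16 alternative runs on this tile lost the call, among them the run with the replicate number as a block. In tiles of 1000 bp, the tile starting at 22873000, which holds these CpGs, was called lower by 25.1 points (adjusted p = 0.0148, quasi-binomial F test). At the CpG 22873946, 3 of the 4 NT embryos were at 0% and the fourth at 18.4%, against 33.3 to 50.6% in fibroblasts.

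At the printed Zrsr1 promoter the embryos went apart. Its 5 capitals averaged 54.0 to 67.2% in NT embryos and 38.3 to 58.9% in fibroblasts. NT embryo 3 was below every fibroblast sample at 3 of the 5, with 31.3, 17.7 and 12.5% at 103 and 6 bases before and 5 bases after the start, where the fibroblast samples held 35% or more, 28.8% or more and 25.4% or more. At the CpGs 30 and 23 bases before the start, which were picked out after their values were seen, the NT embryos averaged 62.3 ± 5.73% and 62.4 ± 4.42%, against 41.1 ± 7.73% and 38.3 ± 5.93% in fibroblasts. Every embryo lay above every fibroblast sample at both, where the thinnest sample had 6 calls. The 100 bp tile that holds both, chr11:22871900-22871999, was not called (14.4 points, adjusted p = 0.190, quasi-binomial F test). In that tile the 2 stages overlapped, and NT embryo 3, at 26.7%, was below every fibroblast sample. The 2 CpGs at chr11:22872600-22872699 lie between the promoter and the called tile of this window. They held 100% (12 calls) and 37.9% in X1 embryos and 40 and 3.85% in BDF1-CAST embryos. Fibroblasts held 17.7 and 0% in X1 and 15.9 and 14.3% in BDF1-CAST. That difference of 33.5 points did not pass the test (adjusted p = 0.251), and without NT embryo 3 it was 15.3 points.

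Peg13 is a paternally expressed non-coding RNA within Trappc9. NT embryos were higher in all but 1 sample. The window measured 48.3 and 35.7% in X1 embryos and 65.8 and 52.2% in BDF1-CAST embryos, against 37.3 and 42.3% in X1 fibroblasts and 38.1 and 36.8% in BDF1-CAST fibroblasts. Embryo 4 was below all fibroblast samples and the other embryos above them. Means were 50.5 ± 12.4% in NT embryos and 38.6 ± 2.51% in fibroblasts (SD, n = 4 each), 11.9 points apart (exact permutation p = 0.143). Without NT embryo 4, the one below the fibroblasts, the difference was 16.8 points (exact permutation p = 0.0286, the smallest possible without that sample). Leaving out any other 1 sample gave exact permutation p = 0.143 to 0.257.

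In the Peg13 window 1 tile was called. The tile at chr15:72640300-72640399, with 3 CpGs, held 65.1 and 40.8% in X1 embryos and 57.3 and 72.5% in BDF1-CAST embryos, against 35.2 and 31.1% in X1 fibroblasts and 34.8 and 30.8% in BDF1-CAST fibroblasts. All embryos were above all fibroblasts, and the tile rose by 26.0 points (58.9 ± 13.6% in NT embryos and 33.0 ± 2.32% in fibroblasts, SD, n = 4 each; adjusted p = 0.0471, quasi-binomial F test). The call was lost on leaving out any sample other than NT embryo 4, at adjusted p = 0.0598 to 0.208, without library 1a and with limma. In all, 11 of 16 alternative runs on this tile lost the call, among them the run with the replicate number as a block.

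Other Peg13 tiles differed more among the embryos. At chr15:72640100-72640199, X1 embryos held 19.8 and 18.8% and BDF1-CAST embryos 57.3 and 39.7%, against 38.9 and 35% in X1 fibroblasts and 32.0 and 39.4% in BDF1-CAST fibroblasts. The mean difference between stages there was -2.43 points (adjusted p = 0.947). At chr15:72640500-72640599 the levels were 40.5 and 55.6% in X1 embryos and 86.5 and 53.5% in BDF1-CAST embryos, against 5.88 and 47.2% in X1 fibroblasts and 50.2 and 31.7% in BDF1-CAST fibroblasts. The CpG at 72640515 in that tile averaged 63.3 ± 20.05% in NT embryos and 31.8 ± 22.2% in fibroblasts, where fibroblast sample 3 was at 0%.

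Igf2r encodes the receptor that clears insulin-like growth factor 2, and the window lies at the intronic promoter of Airn, the antisense RNA that silences Igf2r on the paternal chromosome. The window measured 22.4 and 25.8% in X1 embryos and 37.3 and 51.4% in BDF1-CAST embryos, against 32.0 and 40.6% in X1 fibroblasts and 37.0 and 36.2% in BDF1-CAST fibroblasts. X1 embryos were below all fibroblast samples and BDF1-CAST embryos above at least 3 of the 4 fibroblast samples. Means were 34.2 ± 13.1% in NT embryos and 36.5 ± 3.52% in fibroblasts (SD, n = 4 each), a difference of -2.25 points (exact permutation p = 0.857). The size rested on which CpGs count: it was -17.6 points with each CpG weighted equally and -16.1 points over CpGs with at least 5 calls in all 8 samples, and it turned to 1.70 without NT embryo 3 and 0.549 without NT embryo 4.

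The small mean difference at Igf2r joined tiles with large differences of opposite sign. At chr17:12935200-12935299, with 10 CpGs, X1 embryos held 65.2 and 60.3% and BDF1-CAST embryos 67.6 and 57.4%, against 19.7 and 25.0% in X1 fibroblasts and 34.8 and 29.0% in BDF1-CAST fibroblasts. All embryos exceeded all fibroblasts, and the tile rose by 35.5 points (62.6 ± 4.64% in NT embryos and 27.1 ± 6.39% in fibroblasts, SD, n = 4 each; adjusted p = 0.00847, quasi-binomial F test). NT embryo 3 had 23 calls there, and the samples ranged up to 252. This call held with limma (adjusted p = 0.0191), without library 1a (adjusted p = 0.0122) and without any 1 of 6 samples. Without fibroblast sample 1 or 2 it was lost (adjusted p = 0.0865 and 0.0559), as it was with the replicate number as a block.

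At chr17:12934600-12934699 most embryos were at the other end of the scale. Both X1 embryos were at 0%, and the BDF1-CAST embryos were at 0 and 54.2%, against 42.6 and 61.4% in X1 fibroblasts and 39.3 and 48.9% in BDF1-CAST fibroblasts. The zeros rested on 44, 66 and 44 calls, which allow levels of up to 6.82, 4.55 and 6.82%. The difference of -34.5 points did not pass with all 8 samples (adjusted p = 0.298, quasi-binomial F test). Without NT embryo 2, the one at 54.2%, it was -48.0 points and passed (adjusted p = 0.0272, same test). No other alternative run passed. NT embryo 2 also stood high at chr17:12935100-12935199, at 67.4%, where X1 embryos held 6.67 and 13.3% and the other BDF1-CAST embryo 17.6%, against 32.3 and 35.1% in X1 fibroblasts and 27.3 and 32.9% in BDF1-CAST fibroblasts. At the CpG 12934614 the pattern was the same, with 52.8% in NT embryo 2 and 0% in the others, against 38.9 to 63.6% in fibroblasts.

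Impact encodes an inhibitor of GCN2 activation, the kinase that answers amino acid shortage. Its window had the lowest embryo levels of the 6. It measured 6.25 and 0.826% in X1 embryos and 25.9 and 18.1% in BDF1-CAST embryos, against 26.3 and 40.1% in X1 fibroblasts and 42.3 and 24.8% in BDF1-CAST fibroblasts. The groups overlapped only through the highest embryo and the lowest fibroblast sample, both BDF1-CAST. Means were 12.8 ± 11.3% in NT embryos and 33.4 ± 9.09% in fibroblasts (SD, n = 4 each), a difference of -20.6 points (exact permutation p = 0.0571). NT embryo 4 rested on 121 calls, with a Wilson interval of 0.146 to 4.53%. Without NT embryo 1, the highest embryo, the groups no longer overlapped. The difference was then -25.0 points (exact permutation p = 0.0286, the smallest possible without that sample). Leaving out any other 1 sample, the test was not passed.

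The Impact window has few CpGs, 13 kept and 3 with at least 10 calls in every sample, and 1 tile that could be tested. At chr18:13131700-13131799 both X1 embryos were at 0%, from 203 and 79 calls, which allow up to 1.48 and 3.80%, and the BDF1-CAST embryos were at 38.1 and 5.00%. Fibroblasts held 21.1 and 37.3% in X1 and 45.8 and 30.7% in BDF1-CAST. The tile's difference of -23.0 points did not pass (adjusted p = 0.207), and the 1000 bp tile starting at 13131000 was called lower by 22.8 points (adjusted p = 0.0398). The CpG at 13131727 averaged 9.64 ± 17.3% in NT embryos and 32.8 ± 11.7% in fibroblasts.

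**Figure D3:**
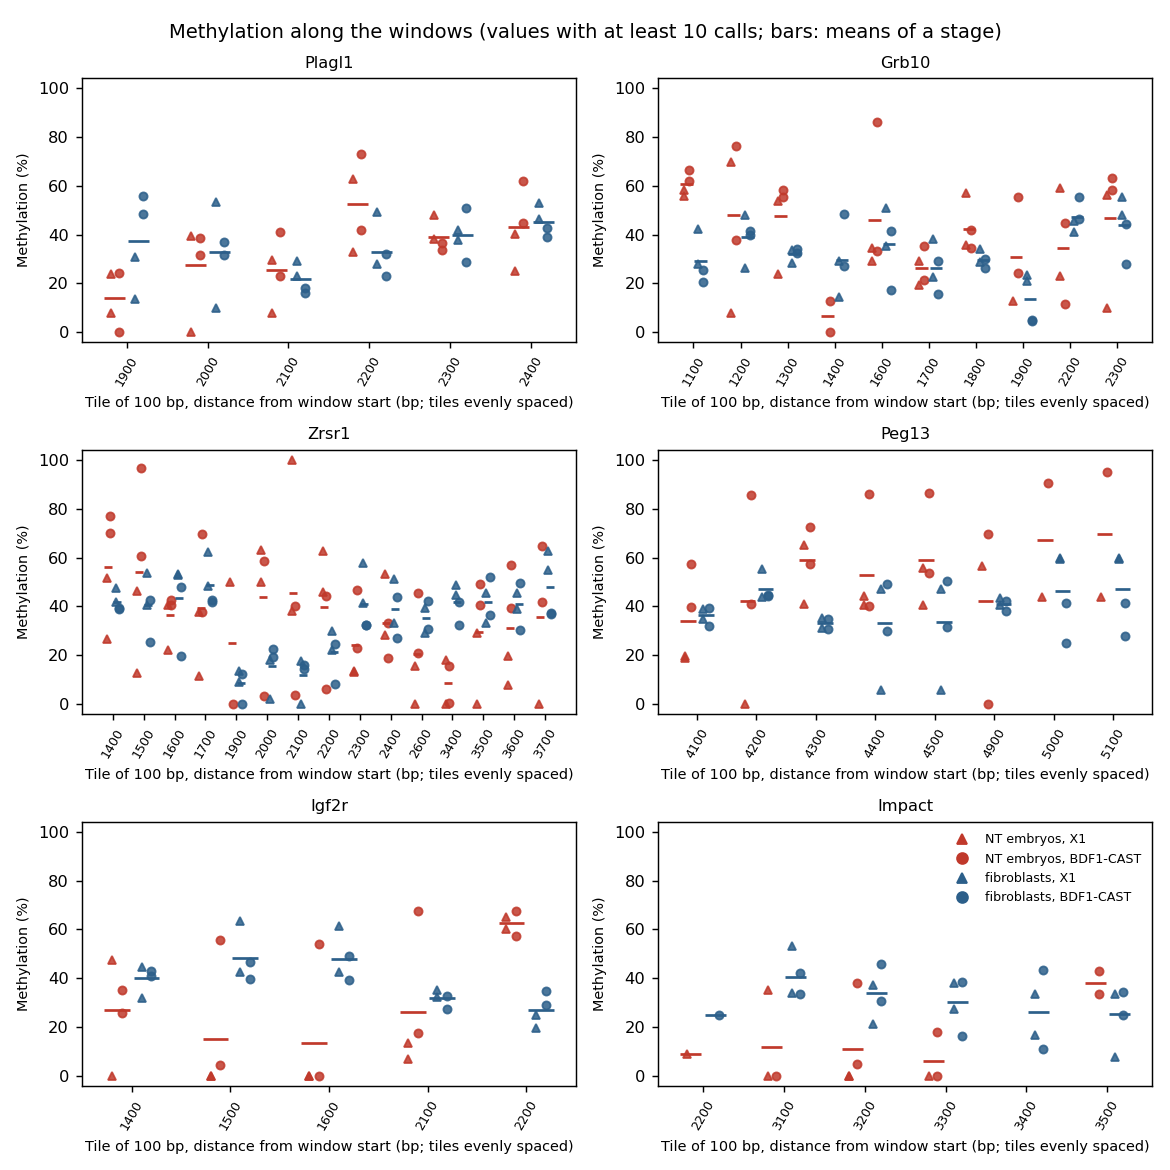
Methylation in percent (vertical axes) of each 100 bp tile with kept CpGs, by distance from the window start in bp (horizontal axes, evenly spaced), for values with at least 10 calls; NT embryos in red left of fibroblasts in blue, X1 as triangles, BDF1-CAST as circles, bars for stage means. Within Igf2r the embryo mean passes from 13.5% to 62.6% between the tiles at 1600 and 2200 bp, while the fibroblast means there are 48.0 and 27.1%.

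Counted together, 37 tiles of the windows had at least 10 calls in every sample. To be called, a tile needed an adjusted p below 0.05 together with stage means 20 or more points apart. Of the 37, 4 were called (10.8%), the 3 higher tiles at Grb10, Peg13 and Igf2r and the lower tile at Zrsr1, against 3.56% of the 271481 tiles of the genome. By direction, 0.134% of all tiles were called higher in NT embryos and 3.43% lower. These shares are not from like tiles. Embryo samples had a median of 80.5 calls in window tiles and 44 in all tiles. Fibroblast values at 80% or above, which leave little or no room for a rise of 20 points, made up 37.9% over all tiles and 0 in the windows. The part of depth and starting level in the shares was not tested. At an unadjusted p under 0.05 stood 10 of the 37 (27.0%), close to the 26.2% over all tiles, and in 5 (13.5%) every embryo lay on 1 side of every fibroblast sample, against 12.5% over all tiles. The fifth of these was chr11:11926300-11926399 at Grb10, 12.6 points higher in NT embryos (adjusted p = 0.125). Without fibroblast sample 1 or 2 no tile of the windows or of the genome was called.

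On average, levels within a sample varied more among the tiles of a window in NT embryos than in fibroblasts. The SD across the tiles of a window within 1 sample was 23.3, 16.8, 14.4 and 18.8 points at Grb10 in NT embryos 1 to 4, against 7.74, 14.1, 11.0 and 7.68 points in fibroblast samples 1 to 4. Means were 18.3 ± 3.78 in NT embryos and 10.1 ± 3.06 in fibroblasts (SD, n = 4 each), and every embryo exceeded every fibroblast sample (exact permutation p = 0.0286, the smallest possible). At Zrsr1 the means were 24.2 ± 3.77 points in NT embryos and 13.9 ± 3.24 points in fibroblasts, also without overlap (exact permutation p = 0.0286). Igf2r gave 24.9 ± 6.42 points in NT embryos and 10.2 ± 4.54 in fibroblasts (exact permutation p = 0.0571). Peg13 gave 16.5 ± 1.48 in NT embryos and 10.1 ± 5.77 in fibroblasts (exact permutation p = 0.114). Plagl1 gave 17.5 ± 7.42 in NT embryos and 13.9 ± 2.38 in fibroblasts (exact permutation p = 0.343). Impact, with 1 tile, gave no value. This measure was chosen after the data had been seen, and it was not taken over other parts of the genome. Counting error adds to it, and window tiles had a median of 80.5 calls in embryo samples against 128 in fibroblast samples. The part of depth in it was not tested.

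**Figure D4:**
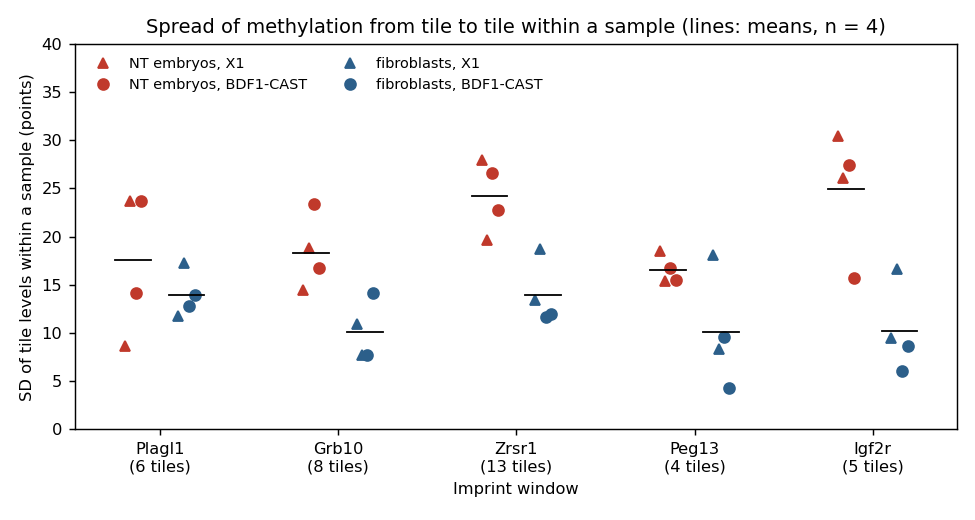
SD of the tile levels within 1 sample, in percentage points (vertical axis), for the 5 windows with several tested tiles (horizontal axis), NT embryos in red left of fibroblasts in blue, with lines for the mean of 4 samples. At Grb10 and Zrsr1 all embryos lie above all fibroblast samples, with means of 18.3 and 24.2 points against 10.1 and 13.9 points.

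Single CpGs showed where the embryo levels went. Over 72 CpGs with at least 10 calls in all 8 samples, 63.9 and 48.6% of the CpGs lay between 20 and 80% methylation in X1 embryos and 70.8 and 77.8% in BDF1-CAST embryos. In fibroblasts 91.7 and 91.7% did so in X1 and 98.6 and 90.3% in BDF1-CAST. Under 20% lay 26 and 35 CpGs in X1 embryos and 14 and 10 in BDF1-CAST embryos, against 6 and 6 in X1 fibroblasts and 1 and 7 in BDF1-CAST fibroblasts. Above 80% lay 0 and 2 CpGs in X1 embryos and 7 and 6 in BDF1-CAST embryos, and 0 in each fibroblast sample.

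CpGs of 1 tile had similar levels. The median gap between the levels of 2 CpGs of the same tile, over 84 pairs, was 1.05 to 6.22 points in NT embryos and 2.55 to 6.67 points in fibroblasts. Between CpGs of different tiles of the same window, over 442 pairs, the gap was 14.3 to 29.6 points in NT embryos and 8.66 to 15.0 points in fibroblasts. CpGs of 1 tile are often read on the same sequenced fragment, so their calls are not independent.

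A wider spread in NT embryos was also seen over other tiles of the genome. Over the 37 tiles, the SD between samples had a median of 18.9 points in NT embryos and 9.21 points in fibroblasts. Over all 24747 tiles that averaged 20 to 60% in fibroblasts it was 19.6 points in NT embryos and 10.5 points in fibroblasts. Levels of exactly 0 made up 13 of 148 embryo values and 1 of 148 fibroblast values in the windows, or 8.78 and 0.676%. In that class of tiles they made up 12.7% of embryo values and 0.124% of fibroblast values. Choosing the class by the fibroblast mean holds fibroblast values away from 0, but not embryo values. Over all tiles tested, levels of 0 made up 24.8% of embryo values and 13.0% of fibroblast values. A tile of the windows had a median of 80.5 calls in an embryo sample and 128 in a fibroblast sample. The spread beyond counting error, as a dispersion that is 1 for binomial counts, had a median of 15.2 in NT embryos and 4.16 in fibroblasts in the windows. In the class of tiles at 20 to 60% its median was 7.45 in NT embryos and 3.04 in fibroblasts, at medians of 36 and 67 calls. For an equal spread of levels beyond counting error, this dispersion rises with the number of calls. The windows and the class differ in calls, so these values do not show which had the wider spread. Over all tiles tested the median SD was 7.06 points in NT embryos and 4.07 points in fibroblasts. The part of depth in the spread was not tested.

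Levels were set beside the genome in the same way. The median difference between NT embryos and fibroblasts was -0.73 points over the 37 tiles, 20 of them lower and 17 higher, against -5.40 points over the class of tiles at 20 to 60% in fibroblasts and -2.08 points over all tiles. No test of the windows against other tiles was made. In 6 other imprinted regions (H19, Peg3, Snrpn, Kcnq1ot1, Mest and Peg10, placed from general knowledge of their positions and holding 45 kept CpGs), NT embryos were lower in 4 and higher in 2, with a median difference of -10.4 points. In the 6 windows they were lower in 3 and higher in 3, with a median of -0.855 points. In the other regions, too, the SD between samples was larger in NT embryos in 6 of 6, with a median of 18.4 points against 8.15 points in fibroblasts. The 2 sets are not alike. H19 is methylated on the paternal allele, and the other regions hold 3 to 11 kept CpGs each. Their levels rested on as few as 30 calls in a sample, against 121 in the windows.

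X1 embryos averaged below BDF1-CAST embryos in all 6 windows. At Grb10 they overlapped, with NT embryo 3 (X1) at 46.8% and NT embryo 1 (BDF1-CAST) at 38.1%. The difference within NT embryos, X1 minus BDF1-CAST, was -10.1 points at Plagl1, -4.07 at Grb10, -13.8 at Zrsr1, -17.0 at Peg13, -20.2 at Igf2r and -18.5 at Impact. Within fibroblasts it was 0.939, 3.63, 5.23, 2.36, -0.265 and -0.373 points in the same order of windows. Over both stages the difference ran from -10.3 points at Igf2r, with 30.2 ± 8.01% in X1 samples and 40.5 ± 7.28% in BDF1-CAST samples (SD, n = 4 each), to -0.219 points at Grb10. No window passed an exact permutation test within stages, at p = 0.167 to 0.889, where 36 assignments allow no p below 0.0556.

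Set against the fibroblasts of their own strain, X1 embryos differed by -4.96 points at Plagl1, 6.59 at Grb10, -14.8 at Zrsr1, 2.17 at Peg13, -12.2 at Igf2r and -29.7 at Impact. BDF1-CAST embryos differed by 6.04, 14.3, 4.26, 21.5, 7.74 and -11.6 points. The difference was thus lower in X1 in each window, and at Grb10, Peg13 and Impact it had the same sign in both strains. With 2 samples per stage and strain, no test of a window was made.

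Tile by tile the strains were not told apart. Between strains 0 of the 37 tiles were called (smallest adjusted p = 0.339), against 0.0111% of all tiles, and 1 (2.70%) had an unadjusted p under 0.05, against 14.4% of all tiles. For the product of stage and strain, which asks whether the stage difference depends on strain, 0 of 37 passed an adjusted p under 0.05 (smallest 0.419), as did 0.0% of all tiles with the quasi-binomial F test. With limma on arcsine square root levels, 2 tiles of the genome passed, neither in the windows. At an unadjusted p under 0.05 of the quasi-binomial F test stood 10 of the 37 (27.0%), against 8.15% of all tiles. With limma these shares were 5 of the 37 (13.5%) and 9.24%. The 10 include neighbouring tiles, which are not independent. Window tiles and all tiles also differ in depth and starting level, and the part of this was not tested. The largest strain differences by tile were -13.2 points at the Plagl1 tile starting at 12810400, -10.2 at the Grb10 tile at 11925800, 20.4 at the Zrsr1 tile at 22872600, -18.2 at the Peg13 tile at 72640500, -14.5 at the Igf2r tile at 12935100 and -15.3 at the Impact tile at 13131700 (adjusted p = 0.373 to 0.903). Without NT embryo 3, the one at 100% from 12 calls, the difference at the Zrsr1 tile was 0.0524 points.

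To free the change from the choice of tiles by their level, tiles were classed by the fibroblasts of 1 strain and their change read in the other. Among tiles at 20 to 60% in BDF1-CAST fibroblasts, the change in X1 had a median of -11.6 points over 34 tiles of the windows, against -4.89 points over all 24834 tiles of that class. Among tiles at 20 to 60% in X1 fibroblasts, the change in BDF1-CAST had a median of 9.91 points over 35 tiles of the windows, against -7.81 points over all 24502. The window tiles thus lay on opposite sides of all tiles in the 2 strains. X1 libraries also covered fewer CpGs, 1376884 to 1596888 against 1746590 to 1886972 in BDF1-CAST libraries, and the part of this in the strain differences was not tested.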

How the data were processed

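The series measured CpG methylation by reduced representation bisulfite sequencing in 9 libraries, 4 of NT embryos and 5 of fibroblasts, and the fibroblast libraries 1 and 1a were summed, leaving 8 samples. The authors deposited, for each library, raw counts per CpG of all calls and of methylated calls, with positions on mm9 (per the submitters' processing notes). Which aligner and methylation caller were used is not given in the sources used. Positions are printed as deposited. Reads carried no molecular identifiers in those sources, so intervals and limits cover counting error only, and calls from amplified copies of 1 molecule would narrow them.

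Levels are methylated over all calls, summed over the CpGs kept in a window or in a tile of 100 bp. A level of 0 was taken to allow 3 calls. Window levels were compared by two-sided exact permutation tests over samples. Every tile of the genome with at least 10 calls in each sample was modelled by quasi-binomial logistic regression of the counts on stage and strain. Dispersions were moderated over all tiles (limma 3.58.1, squeezeVar, under R 4.3.3) with a floor of 1, and p-values of the F test were adjusted by Benjamini-Hochberg. The remaining work used scipy 1.17.1, pandas 2.3.3, numpy 2.4.6 and matplotlib 3.10.9 under Python 3.11.15.

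Named tiles are those called and, in each window, those of at least 2 kept CpGs with the lowest, the highest and the largest strain difference. Named CpGs are those with the largest stage difference among CpGs with at least 10 calls in all samples. The windows, lists and rules were chosen with earlier results of these data known. Alternatives covered the minimum number of calls, CpG weighting, the treatment of library 1a, each sample left out, the replicate number as a block, covariates, model and tile length. Tile sums over CpGs with any number of calls were added after seeing the data. The deposited table of tile fractions was not used.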

Additional observations from a re-analysis of the deposited data

Results flagged for a closer look

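In 3 tiles 1 NT embryo stood far from the other 3, out of 40 groups of 4 samples looked at. Chance at 1 in 20 would give 2. That count is no fair yardstick, because the groups were windows and named tiles inside them. The tiles had also been picked by their differences. In the Grb10 tile starting at 11925800, NT embryo 4 held 23.9% and the other embryos 53.7 to 58.1%. In the Igf2r tile starting at 12934600, NT embryo 2 held 54.2% and each of the others 0%. In the Impact tile starting at 13131700, NT embryo 1 held 38.1% and the others 0 to 5.00%.

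Among the 6 windows and the named tiles, in 4 places both X1 embryos lay below the mean of X1 fibroblasts and both BDF1-CAST embryos above the mean of BDF1-CAST fibroblasts. The difference between embryos and fibroblasts was -4.96 points in X1 and 6.04 in BDF1-CAST at Plagl1 (-11.0 between them), -14.8 and 4.26 at Zrsr1 (-19.1 between them), -12.2 and 7.74 at Igf2r (-20.0 between them), and -17.7 and 12.8 in the Peg13 tile starting at 72640100 (-30.5 between them). How many of all tiles show such a pattern was not counted. The named tiles had been picked by their differences, and each stage and strain has only 2 samples. For the windows this difference between strains was not tested. In the Peg13 tile the product of stage and strain had an adjusted p = 0.464 (quasi-binomial F test over all tiles).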

How the results depend on the processing

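Leaving out 1 sample at a time, the stage difference ran from -2.31 to 3.55 points at Plagl1, 8.17 to 13.8 at Grb10, -8.33 to -1.32 at Zrsr1, 6.76 to 16.8 at Peg13, -7.97 to 1.70 at Igf2r and -25.0 to -16.6 at Impact, the strain difference at Grb10 from -3.98 to 3.75 and at Zrsr1 from -7.25 to -0.179, the stage difference of the Peg13 tile starting at 72640100 from -10.2 to 2.61, and the number of window tiles called between stages from 0 to 4. The Grb10 strain difference also turned to 0.0648 points without library 1a and to 0.931 with libraries 1 and 1a as 2 samples. With those as 2 samples, which counts 1 sample as 2 replicates, the stage difference passed at Grb10 (10.5 points, exact permutation p = 0.0397) and at Impact (-22.5 points, exact permutation p = 0.0317), and with no minimum on calls it passed at Impact (-20.2 points, exact permutation p = 0.0286). The stage difference at Zrsr1 and the strain differences at the other 5 windows kept their sign under each alternative run, and none of these passed. Of the window tiles, 2 were called with limma, 1 without library 1a, 2 in tiles of 1000 bp and 0 with the replicate block, against 4. It was 3 at 20 calls in every sample, and 3 with tile sums over CpGs with any number of calls. The number called between strains, or for the product of stage and strain, stayed at 0.

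Over the genome 9673 tiles were called between stages, against 5899 with limma, 4394 at 20 calls, 14655 at 5 calls, 14671 with libraries 1 and 1a as 2 samples, 19812 of 1000 bp, 0 without fibroblast sample 1 or 2, and 1046 and 1286 without samples 3 and 4. Whether the replicate numbers pair the samples could not be decided. Over 172412 tiles, deviations from the stage mean correlated at 0.0998, 0.0933, 0.162 and 0.0335 for numbers 1 to 4. Not every sample correlated best with its own number. These deviations also carry the difference between strains. Fibroblast sample 1 correlated at 0.116 with NT embryo 2, of its own strain, and at -0.109 with NT embryo 3. Once the mean of each stage and strain is removed, the 2 samples of a group mirror each other. Those correlations therefore cannot decide on pairing. With the number as a replicate block, 0 tiles of the genome were called, and the window differences gave exact permutation p = 0.125 to 1, where 0.125 is the smallest possible. Window levels rested on 121 calls in the thinnest sample, at Impact, and on 605 at Plagl1.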
